A study of Mus musculus with 6 samples.

Results

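The genes described here are the mouse serpins and the genes with whey acidic protein (WAP) domains, that is every gene whose symbol begins with Serpin or Wfdc, together with Slpi. The annotation holds 88 such genes, and 82 of them (63 serpins and 19 WAP genes) had a named probe, 103 probes in all, on an array that covers 23458 named genes. They were measured in colon of 3 male control mice and 3 male Islr knockout mice, with 1 single-colour Agilent array per sample. Islr encodes a secreted protein with leucine-rich repeats and an immunoglobulin domain. According to the source field, both groups drank 3.5% dextran sulfate sodium, which injures the colonic epithelium, for 5 days and then recovered for 1 day, although the treatment field of the same labels says that there was no treatment. The series text says that the samples were separated by flow into TRIzol and names no gate. Age, strain, the knockout allele and the cells it is deleted in are not given in the sources used here. Titles that differ by sample are all that marks the samples of a group as separate animals, so the p-values measure the spread between these samples. The comparison of the genotypes asks how loss of Islr changed expression of these inhibitors in the injured colon.

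Serpins trap their target protease irreversibly: the protease cuts an exposed loop of the serpin and is held in the complex. Plasma serpins control clotting, the breakdown of fibrin, complement and neutrophil elastase, whereas the clade B serpins stay mostly inside cells and guard leukocytes and epithelia against their own granule proteases and granzymes. WAP proteins such as Slpi are small, secreted at mucosal surfaces, and either inhibit serine proteases or act against bacteria. In the inflamed colon both families meet proteases released by neutrophils, macrophages and the damaged epithelium.

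Values are log2 processed signals after subtracting the 75th percentile of the array, so 0 is that percentile and 1 unit is a doubling; levels of different genes are not compared, since probes differ in how they bind. A member was called when limma gave an adjusted p under 0.05 over all 35351 tested probes of the array. Where a gene had several probes, its brightest tested probe stands for it. The check of the labels held for every knockout array: Islr (A_51_P140742) was at 1.57, 1.24 and 1.21 in the controls and -1.40, -0.93 and -1.31 in the knockouts, a difference of -2.44 (SE 0.21, adjusted p = 0.0171; the first control value was an outlier spot and was left out of the fit). That adjusted p was 0.0580 without knockout replicate 3. The 75th percentile was 6353 to 7110 intensity units in controls and 4910 to 5820 in knockouts before scaling, between 69.4% and 75.4% of spots were well above background, and outlier spots made up 3.26% to 16.0% of an array. Knockout 1 had the lowest 75th percentile, the smallest share above background and the most outlier spots. It was also the lowest array at the called probes of Wfdc12, Wfdc21, Serpind1, Serpina3j, Serpinf1, Slpi and Serpini1. At the called probes of Serpina3k and Serpina3m it was not the lowest. Among probes not called, it was lowest for Serpine2, Serping1, Serpina3n and the brighter Slpi probe. The part of array quality in all these values was not tested. All controls lay in slide row 1 and all knockouts in row 2, so row and genotype cannot be told apart. All 10 markers of differentiated colon epithelium were well above background on at least 1 array. Their summed linear level, in units of the 75th percentile, was 62.7, 17.1 and 41.4 in controls 1, 2 and 3 and 93.9, 68.1 and 68.4 in the knockouts, so control 2 was the lowest.

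The data show that inhibitors of the antichymotrypsin family, heparin cofactor II, the WAP genes Wfdc12 and Wfdc21, and pigment epithelium-derived factor were lower in the Islr knockout colon, by 2.42-fold to 22.1-fold for the 3 of them that all 6 arrays measured well above background. Of 44 members that could be tested, 7 were called lower and 0 higher, against 2.47% of 16448 named genes called lower, 1.35% called higher and 3.82% called in either direction. A share of 28.2% of all named genes had an unadjusted p under 0.05, and 23 members did, 17 lower and 6 higher. The tested members included 25 with a lower and 19 with a higher value in the knockout, with a median difference of -0.35 against 0.01 over all named genes. That median and those counts lean on members that were tested because the controls were bright: among the 35 whose probe was well above background on all 6 arrays, 17 were lower and 18 higher, the median was 0.20 (all genes 0.02), and 3 were called lower where 304 of 15300 genes were. Counted by probe, 9 of 54 tested member probes were called, all lower, against 3.97% of all tested probes (2.42% lower and 1.55% higher). The further 2 were dimmer probes of Slpi and Serpini1. The count by probe also leans on probes that were tested because the controls were bright. In a fit of only the probes well above background on all 6 arrays, 3 member probes were called (Serpina3m, Serpinf1 and Wfdc12). That fit called 3.3% of all probes. Of 50 member probes well above background on all 6 arrays, 18 had every knockout below every control and 11 every knockout above, where 16.4% and 17.5% of all such probes did (33.9% together).

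The remaining 44 members with no test were as follows. No probe was named for 6 of them (Serpina3d-ps, Serpina3e-ps, Serpina3g, Serpina3l-ps, Serpinb1-ps1 and Serpinb9h). A further 19 were well above background on no array, among them Serpinb2 and Serpinf2, which restrain urokinase and plasmin, the corticosteroid carrier Serpina6, the squamous genes Serpinb3a, Serpinb3b and Serpinb3d, Serpina12, Serpina16, Serpina3a, Serpina5, Serpinb9b, Serpinb9c, Serpinb9g, Serpinb11, Serpinb12, Serpinb13, Serpini2, Wfdc6b and Wfdc15b. In 14 the signal passed the background on some arrays only: Serpina1f, Serpina7, Serpinb3c, Serpinb7, Serpinb9e, Serpinb10, Serpine3, Wfdc5, Wfdc6a, Wfdc9, Wfdc11, Wfdc13, Wfdc15a and Wfdc16. The other 5 (Serpina3h, Serpinb1c, Serpinb6c, Serpinb6e and Wfdc17) were bright, but too many of their spots were marked as outliers for a fit.

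**Figure D1:**
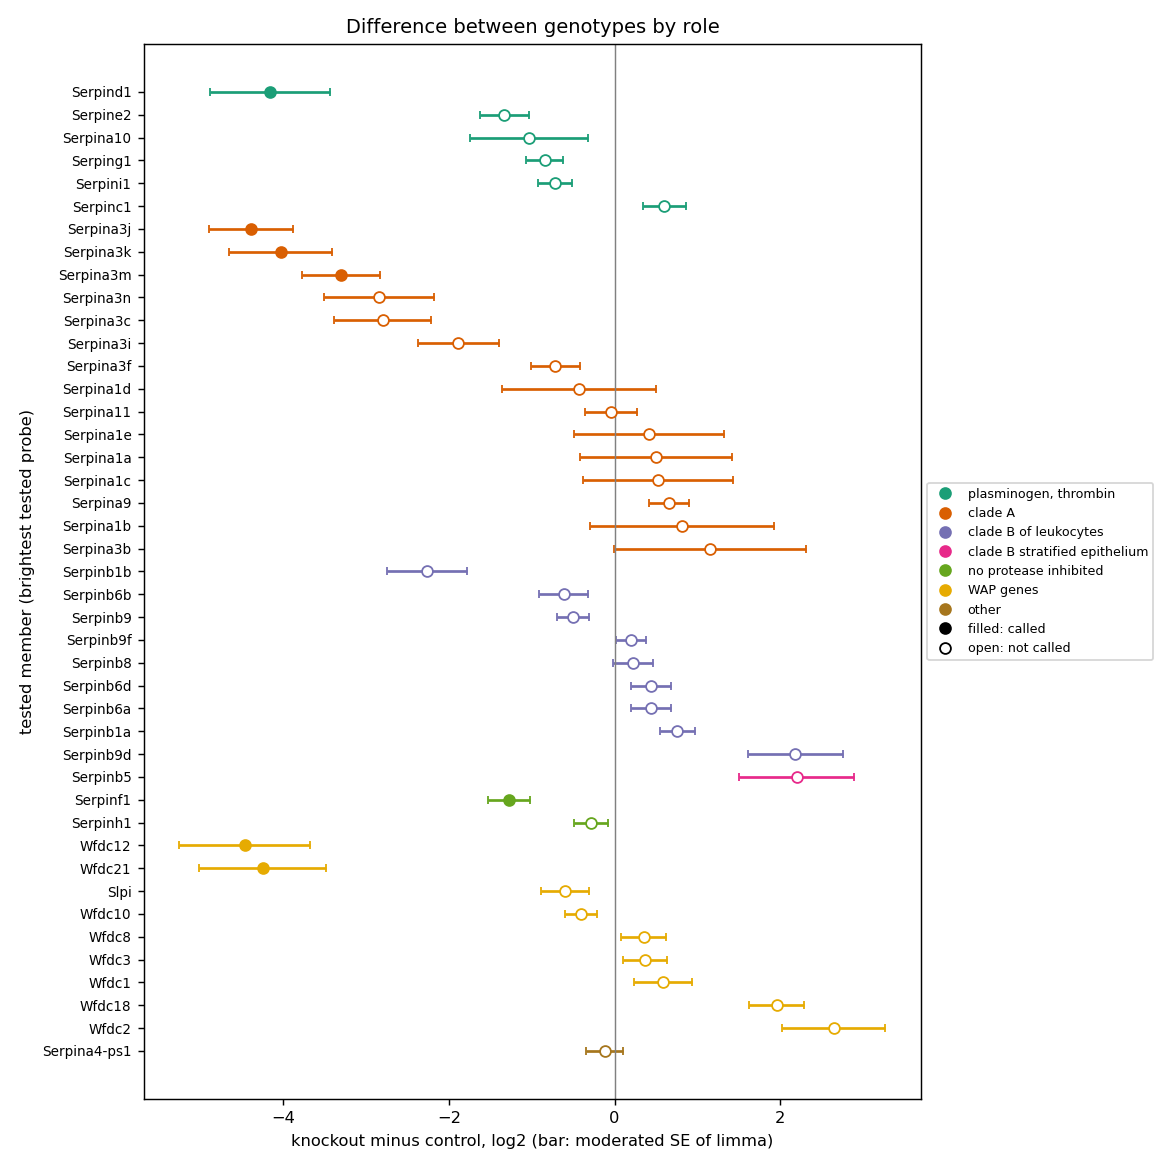
Knockout minus control on the log2 scale (x axis) for the tested members described in the text (y axis), coloured by role, with the moderated standard error of limma as the bar; filled points were called. The 7 filled points all lie left of 0, among the plasminogen and thrombin inhibitors, clade A, the serpins that inhibit no protease and the WAP genes.

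Wfdc12 and Slpi lie in the same row of WAP genes on chromosome 2, and each had a called probe. Their upstream sequences were picked for display because both carry a match to the C/EBP motif, so the shared match follows from that choice. The motif is a site read by factors active in myeloid cells and epithelia, and its letters were set after the data were seen. The sequences are the 250 bases before the annotated start, from RefSeq, build GRCm38.p6, on the strand of the gene. Capitals mark motif matches.
Wfdc12 (chr2:164190559-164190808, minus strand): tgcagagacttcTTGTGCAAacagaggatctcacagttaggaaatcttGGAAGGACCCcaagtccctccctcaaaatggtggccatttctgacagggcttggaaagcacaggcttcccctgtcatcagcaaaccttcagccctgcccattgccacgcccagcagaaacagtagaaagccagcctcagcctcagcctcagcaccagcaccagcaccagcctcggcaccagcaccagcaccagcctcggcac
Slpi (chr2:164356508-164356757, minus strand): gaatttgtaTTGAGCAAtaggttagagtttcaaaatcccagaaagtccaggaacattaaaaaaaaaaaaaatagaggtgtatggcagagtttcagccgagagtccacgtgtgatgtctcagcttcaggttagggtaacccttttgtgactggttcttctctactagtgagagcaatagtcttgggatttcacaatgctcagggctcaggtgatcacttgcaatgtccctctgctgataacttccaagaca
Motifs were searched on both strands: TTGCNNAA for C/EBP, GGG and CC with 5 bases between them for NF-kB, TGANTCA for AP-1, TTCNNNGAA for STAT and TATAAA for TATA. The C/EBP letters began 238 bases before the start in Wfdc12 and 241 in Slpi; of 32851 promoters of the same length 9.56% hold a match. An NF-kB match in Wfdc12, which 45.8% of promoters have, began 202 bases before the start and overlaps no other match. Of the 6 genes with a called probe and a promoter in the table, 2 held a C/EBP match, 2 an NF-kB match (Wfdc12 and Serpini1), and 0 an AP-1, STAT or TATA match, which are found in 6.75%, 7.02% and 12.4% of promoters. A match is a description of letters only. Of the members, 67 had a promoter in the table.

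Among the serpins that control plasminogen activation, clotting and complement, 12 genes in all, 7 were tested, 6 were lower and 1 was called. Over all named genes, 2.47% were called lower and 1.35% higher. The called gene was tested only because its controls were bright. Serpind1, heparin cofactor II, a thrombin inhibitor, was at -3.00, -1.99 and -2.63 in the controls and at -7.68, -4.96 and -7.47 in the knockouts. No knockout reached any control, and only knockout 2 was well above background. The difference was -4.16 (SE 0.73, adjusted p = 0.0396). The call was lost without control 2, control 3, knockout 1 or knockout 3, with an adjusted p of up to 0.108.

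Serpine2, protease nexin, which binds thrombin and urokinase at cell surfaces, read 2.05, 2.34 and 2.31 in the controls and 0.31, 1.43 and 0.96 in the knockouts, a difference of -1.33 (SE 0.29, adjusted p = 0.0567). Serping1, the inhibitor of the first complement component and of plasma kallikrein, read 2.28, 2.09 and 2.0 against 0.86, 1.58 and 1.41, a difference of -0.84 (SE 0.22, adjusted p = 0.0774). For both genes the groups did not overlap, knockout 1 was the lowest array, and neither was called. Serpini1, neuroserpin, an inhibitor of tissue plasminogen activator, has 2 probes. Its brighter one (A_52_P220573) differed by -0.72 (SE 0.21, adjusted p = 0.0919), and its dimmer one (A_66_P100165) was called: -3.69, -3.29 and -3.65 in the controls and -5.42, -4.76 and -4.63 in the knockouts. The groups of the dimmer probe did not overlap, and knockout 1 was not well above background. Its difference was -1.39 (SE 0.25, adjusted p = 0.0423), and of the fits with 1 array left out only the one without control 1 kept the call (adjusted p up to 0.121 in the others). Serpinc1, antithrombin, was the exception in direction, with a difference of 0.60 (SE 0.26, adjusted p = 0.193) and no overlap between groups. Serpina10, which inhibits factor X together with protein Z, differed by -1.04 (SE 0.71, adjusted p = 0.389), and its groups overlapped.

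**Figure D2:**
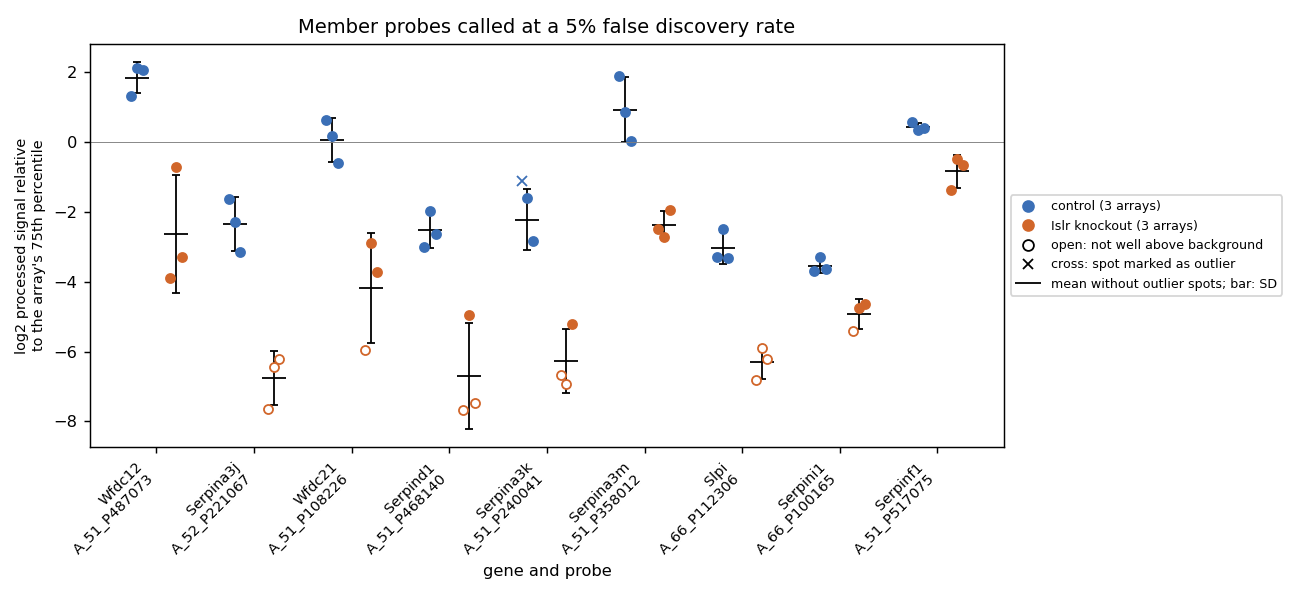
Log2 processed signal minus the 75th percentile of that array (y axis) for the 9 member probes called, one point per array, with the mean and SD of the values that entered the fit; open points were not well above background and a cross is an outlier spot. At every probe all 3 knockout arrays lie below all 3 controls, and at the probes of Serpina3j and Slpi no knockout array was well above background.

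The clade A genes are secreted serpins, chiefly the alpha-1-antitrypsin and antichymotrypsin families. Of 21 such genes 15 were tested, 9 were lower, 6 were higher and 3 were called. All 3 were called lower and belong to the antichymotrypsin family, where 2.47% of all named genes were called lower and 1.35% higher. Only Serpina3m of the 3 was well above background on all 6 arrays. These genes are close copies, and a probe of one may bind transcripts of another, so the 3 calls may not be independent. Serpina3j was at -1.63, -2.29 and -3.17 in the controls and at -7.64, -6.43 and -6.20 in the knockouts. The knockouts were not well above background on any array, so the signal was at least 8.82-fold lower. This bound takes the mean of the bright group against, on each array of the dim group, the higher of the probe's own signal and the lowest signal that was well above background there. The fitted difference had an adjusted p of 0.0227, and the call was lost without control 2 or knockout 3, with an adjusted p of up to 0.0633.

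Serpina3k was at -1.13 (an outlier spot, left out of the fit), -1.61 and -2.85 in the controls and at -6.67, -6.92 and -5.21 in the knockouts, a difference of -4.03 (SE 0.62, adjusted p = 0.0394). The groups lay far apart, and only knockout 3 was well above background. The call was lost without each knockout in turn (adjusted p up to 0.0949), and without control 2 or control 3 too few values were left for a fit. Serpina3m was well above background on all 6 arrays, at 1.88, 0.85 and 0.02 in the controls and -2.49, -2.73 and -1.94 in the knockouts. Its groups did not overlap, and the difference of -3.30 (SE 0.47, 9.87-fold, adjusted p = 0.0300) was lost as a call without control 2, knockout 1 or knockout 3, with an adjusted p of up to 0.0806.

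Serpina3n, an acute-phase serpin that inhibits granzyme B and leukocyte proteases, was at 1.68 (an outlier spot), 1.49 and 1.37 in the controls and at -2.76, -0.50 and -1.0 in the knockouts. All knockouts were below all controls, but the spread of the knockouts was wide, and the difference of -2.85 (SE 0.66) had an adjusted p of 0.0707. With the outlier spot kept, so that all 3 controls entered, the adjusted p was 0.0402. Serpina3c missed the threshold by less: -1.30, -2.80 and -3.85 against -5.55, -5.42 and -5.38, a fitted difference of -2.80 (SE 0.59, adjusted p = 0.0526). Its knockout 1 was not well above background, and knockouts 2 and 3 lay close to the lowest signals that were, so the size of this difference is limited by the background. In controls 1, 2 and 3 the values of Serpina3c, Serpina3j, Serpina3k and Serpina3m had the same order, control 1 highest and control 3 lowest. Control 1 also stood apart in the summed markers of mesothelium and adipose tissue, at 24.0 against 7.67 and 8.01 in controls 2 and 3 and 4.67 to 11.6 in the knockouts; their part in these values was not tested. Serpina3i (-1.89, adjusted p = 0.0753) and Serpina3f (-0.72, adjusted p = 0.182) also had no overlap between groups at either of their 2 probes. Serpina3b had the opposite sign (1.15, SE 1.16, adjusted p = 0.565) and overlapping groups, and Serpina3h, which could not be tested, overlapped too. The genes of this family are close copies, and a probe of one may also bind the transcripts of another, so the assignment to single genes is uncertain.

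The alpha-1-antitrypsin genes, inhibitors of neutrophil elastase made mainly in liver, varied more between arrays of the same genotype than between genotypes. Serpina1a was at -1.33, 0.60 and 1.38 in the controls and at -0.82, 2.11 and 0.86 in the knockouts. Control 1 and knockout 1 were lowest, knockout 2 was highest, and the groups overlapped at all 5 genes from Serpina1a to Serpina1e. Their differences ran from -0.43 to 0.81, with adjusted p-values of 0.675 to 0.800. The within-group SD of Serpina1c was 1.42, against a median of 0.25 over all named genes well above background on all 6 arrays, of which 99.4% had a smaller one. The values of Serpina3b were spread as widely, with a within-group SD of 1.83, and it too was lowest on control 1 and knockout 1. These genes are also near-identical copies, so that their probes may not be independent. Summed markers of liver-like and pancreas tissue were at 3.65, 2.11 and 2.98 in controls and 6.17, 4.42 and 5.56 in knockouts. They were highest on control 1 and knockout 1 within their groups, where the Serpina1 genes were lowest. This sum joins genes of both tissues, so it does not show how either varied alone. The part of these tissues in the Serpina1 values was not tested. Serpina9, a serpin of germinal centre B cells, differed by 0.66 (SE 0.24, adjusted p = 0.144), and Serpina11 by -0.05.

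**Figure D3:**
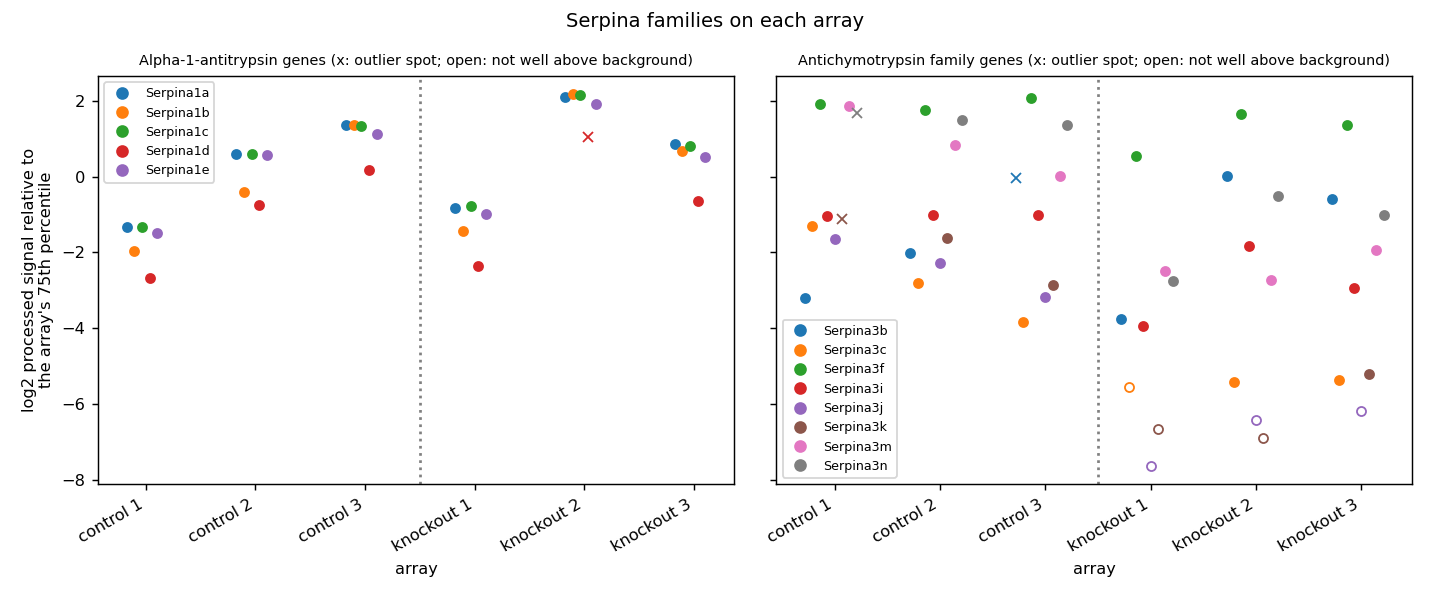
Log2 processed signal minus the 75th percentile of that array (y axis) on each of the 6 arrays (x axis) for the alpha-1-antitrypsin genes (left) and the antichymotrypsin family (right), at the brightest tested probe of each gene. On the left control 1 and knockout 1 are low and knockout 2 is high; on the right Serpina3c, Serpina3j, Serpina3k, Serpina3m and Serpina3n lie lower on all knockout arrays than on any control.

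The clade B serpins of leukocytes are intracellular inhibitors of elastase, cathepsin G and granzyme B. Of 17 such genes 9 were tested, 3 were lower and 6 higher, with a median difference of 0.22, and 0 were called in limma. An unadjusted limma p under 0.05 was found for 4, where 28.2% of all named genes had one. Serpinb1a, an inhibitor of neutrophil elastase, was at 2.69, 2.07 and 2.60 in the controls and at 3.41, 3.09 and 3.14 in the knockouts. The groups did not overlap, and the difference of 0.76 (SE 0.21, adjusted p = 0.0870) did not pass. Its close relative Serpinb1c could not be tested without its outlier spots. With them kept, A_51_P212057 was at 1.64, 1.51 and 1.72 in the controls and 2.89, 2.45 and 2.77 in the knockouts, a difference of 1.08 (SE 0.18, adjusted p = 0.0310), and its other probe differed by 0.64 (SE 0.17, adjusted p = 0.0734). Every knockout was above every control at both probes. At both, every array but control 2 carried an outlier mark, so these differences rest almost wholly on marked spots.

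Serpinb1b went the other way and was well above background in the controls only: -5.44, -4.47 and -5.01 against -7.62, -6.21 and -7.89. That is at least 1.44-fold lower (fitted adjusted p = 0.0529), close to the detection limit in both groups. At A_51_P219424, Serpinb9d was well above background in the knockouts only. That probe was at -6.00, -8.11 and -6.18 in the controls and -4.98, -4.67 and -4.09 in the knockouts, at least 2.33-fold higher (fitted adjusted p = 0.0770). The other Serpinb9d probe (A_55_P1971433) was well above background on no array, at -7.66, -7.87 and -7.86 in the knockouts. Neither Serpinb1b nor Serpinb9d was called.

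Serpinb9, the granzyme B inhibitor of cytotoxic lymphocytes, was at 0.53, 0.76 and 0.54 in the controls and at 0.05, -0.15 and 0.41 in the knockouts. The groups did not overlap, but the difference of -0.51 (SE 0.19, adjusted p = 0.155) was small. Gzmb, which encodes its target granzyme B, differed by -0.85 (SE 0.50, adjusted p = 0.320) and overlapped between groups. Of the cathepsin G inhibitors related to Serpinb6, Serpinb6a and Serpinb6d were each higher by 0.44 and Serpinb6b was lower by 0.61 (a difference of -0.61, adjusted p = 0.234), and none was called. Serpinb6e, with outlier spots kept, differed by 1.08 (SE 0.24, adjusted p = 0.0519) with no overlap, while Serpinb6c overlapped. Serpinb8, an inhibitor of furin, differed by 0.22 (SE 0.24) and Serpinb9f by 0.20 (SE 0.18), both with overlap.

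The clade B serpins of stratified epithelium were mostly below detection: of 9 genes, 6 were well above background on no array, 2 on some, and Serpinb5 alone was tested. Serpinb5, maspin, an epithelial serpin, was at 0.18, -2.45 and 0.09 in the controls and at 1.66, 1.12 and 1.64 in the knockouts. Control 2 was far below all other arrays, and every knockout was above every control. The difference of 2.20 (SE 0.70) had an adjusted p of 0.107, and it was 1.34 without control 2. Summed squamous markers were at 9.50 to 12.2 in controls and 12.2 to 13.4 in knockouts, with Sprr3 and Dsg3 well above background on no array.

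Among the 4 serpins grouped here as inhibiting no protease, a group that need not hold every such member, 2 were tested and 1 was called lower. Of all named genes 2.47% were called lower and 1.35% higher. The carriers Serpina6 and Serpina7 were not measured in full. Serpinf1, pigment epithelium-derived factor, a secreted inhibitor of vessel growth made by fibroblasts among other cells, was at 0.56, 0.34 and 0.39 in the controls and at -1.37, -0.50 and -0.66 in the knockouts. The groups did not overlap, and knockout 1 was lowest. The difference was -1.27 (SE 0.25, 2.42-fold, adjusted p = 0.0468), and its further probes gave -1.49 (adjusted p = 0.0627) and -1.17 (adjusted p = 0.0648). The call was lost without any of the controls, knockout 1 or knockout 3, with an adjusted p of up to 0.125. Serpinh1, the collagen chaperone of the endoplasmic reticulum, was at 2.0, 2.21 and 2.45 in the controls and at 1.13 (an outlier spot), 1.90 and 1.98 in the knockouts, a difference of -0.28 (SE 0.20, adjusted p = 0.418). All 8 tested fibroblast markers were lower, with a median of -0.52, and 1, Pdgfrb, was called; their summed level was 43.9 to 50.6 in controls and 27.2 to 37.2 in knockouts. Endothelial markers summed to 8.24 to 9.93 and 2.69 to 5.83. The part of these cells in the serpin values was not tested. In bulk RNA such as this, whatever cells the separation kept, fewer cells of a type and less RNA per cell cannot be told apart.

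Of the 19 WAP genes 9 were tested, 4 lower and 5 higher, and 2 were called, both lower. The share of all named genes called lower was 2.47%, and 1.35% were called higher. Of the 2 called, Wfdc21 was tested only because its controls were bright. Wfdc12, a small secreted WAP protein with antibacterial activity, was at 1.32, 2.11 and 2.05 in the controls and at -3.90, -0.73 and -3.28 in the knockouts, and was well above background on all 6 arrays. Knockout 2 stood above the other knockouts and still far below every control. The difference of -4.47 (SE 0.79, 22.1-fold, adjusted p = 0.0410) was lost as a call without control 2, control 3, knockout 1 or knockout 3, with an adjusted p of up to 0.109. Wfdc21 was at 0.63, 0.17 and -0.61 in the controls and at -5.95, -2.90 and -3.72 in the knockouts, a difference of -4.25 (SE 0.77, adjusted p = 0.0426). Its groups did not overlap, and knockout 1 was not well above background. This call was lost without any of the controls, knockout 1 or knockout 3, with an adjusted p of up to 0.111.

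Slpi, the secretory leukocyte protease inhibitor, which blocks elastase and cathepsin G at mucosal surfaces, gave different answers at its 2 probes. The brighter (A_52_P472324) was at 2.71, 2.79 and 2.84 in the controls and at 1.54, 2.40 and 2.60 in the knockouts. The groups did not overlap, and knockouts 2 and 3 lay close beneath the controls. Its difference was -0.60 (SE 0.28, adjusted p = 0.232). The dimmer (A_66_P112306) was at -3.29, -2.51 and -3.31 in the controls and at -6.82, -5.90 and -6.20 in the knockouts, well above background in the controls only. It was at least 5.52-fold lower (fitted adjusted p = 0.0169), and that call was lost only without knockout 3 (adjusted p = 0.0539). The probes disagree in size and not in direction, and nothing in the files says which transcripts each one reads.

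Wfdc2, a secreted WAP protein of mucosal epithelia, was at 0.50, -1.70 and 0.42 in the controls and at 2.97, 1.85 and 2.34 in the knockouts. Every knockout was above every control, and control 2 was lowest, as for Serpinb5. The difference of 2.65 (SE 0.62, 6.26-fold) missed the threshold, with an adjusted p of 0.0639, and it was 1.93 without control 2. Control 2 was also lowest in the summed epithelial markers given above, of which 8 of 8 tested had a higher knockout value (median difference 1.42, 0 called by limma, adjusted); their part in the Wfdc2 and Serpinb5 values was not tested. Wfdc18, a WAP gene known from mammary gland, was at 0.41, 1.22 and 2.21 (an outlier spot) in the controls and at 1.57 (an outlier spot), 2.87 and 2.69 in the knockouts. Its difference of 1.96 (SE 0.33, adjusted p = 0.0531) rested on 2 values in each group, and with the outlier spots kept the groups overlapped and the difference was 1.09 (adjusted p = 0.234). Wfdc17, a WAP gene of activated macrophages, overlapped between groups, at 1.25, 0.49 and 0.39 against 0.35, 0.22 and 0.68 with outlier spots kept. The differences of Wfdc1 (0.59), Wfdc3 (0.37), Wfdc8 (0.35) and Wfdc10 (-0.41) had adjusted p-values of 0.243 to 0.443.

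**Figure D4:**
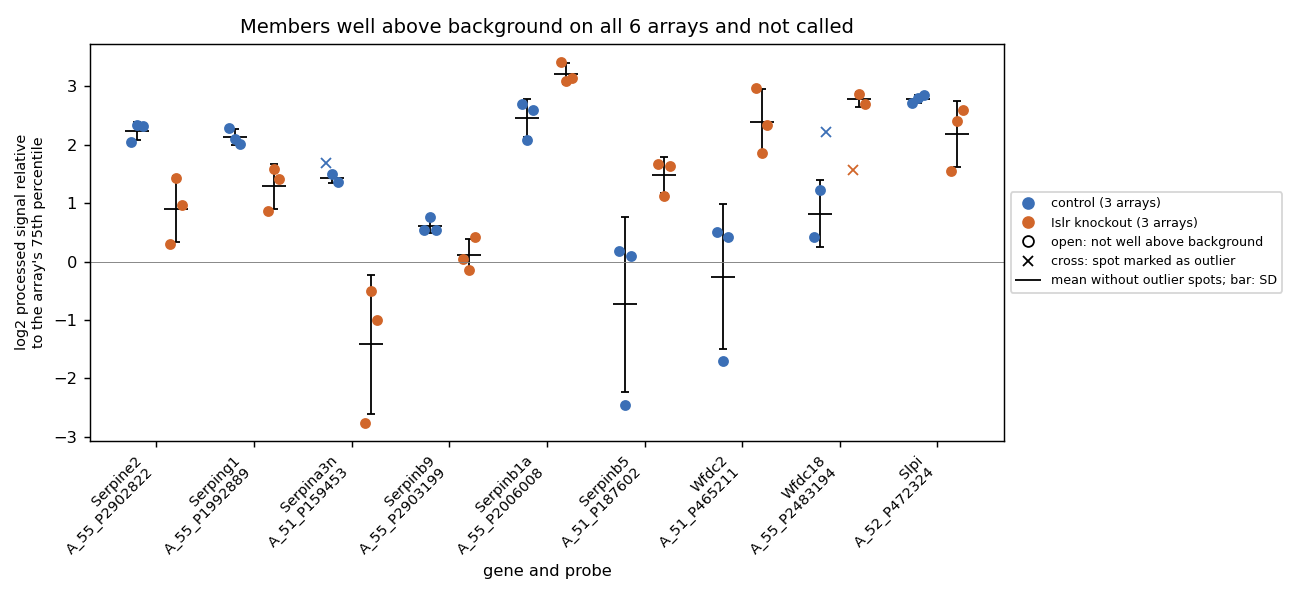
Log2 processed signal minus the 75th percentile of that array (y axis) on each array for 9 members well above background on all 6 arrays and not called at the probe shown, with the mean and SD of the values that entered the fit; crosses are outlier spots. Knockout 1 is lowest for Serpine2, Serping1, Serpina3n and Slpi, and control 2 for Serpinb1a, Serpinb5 and Wfdc2.

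Most members lie in clusters of neighbouring genes, and the signs were mixed within most of them. For comparison with the counts below, 2.47% of all named genes were called lower and 1.35% higher. On chromosome 12, 28 members stand in a row, 17 were tested, 11 were lower and 3 were called. From Serpina3c to Serpina3n, 7 genes were tested and 7 were lower, whereas 4 of the 5 alpha-1-antitrypsin genes of the same row had higher values and 0 were called. The row on chromosome 2 holds 15 WAP genes. Its 6 tested members were 3 lower and 3 higher, and it holds both Wfdc12, called lower, and Wfdc2, with a higher value. Wfdc17, Wfdc18 and Wfdc21 lie together on chromosome 11, where Wfdc21 was called lower and Wfdc18 had a higher value. The clade B rows held 8 tested genes of 17 on chromosome 13, of which 3 were lower and 5 higher, and 2 tested genes of 12 on chromosome 1, both higher, with 0 called in either.

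**Figure D5:**
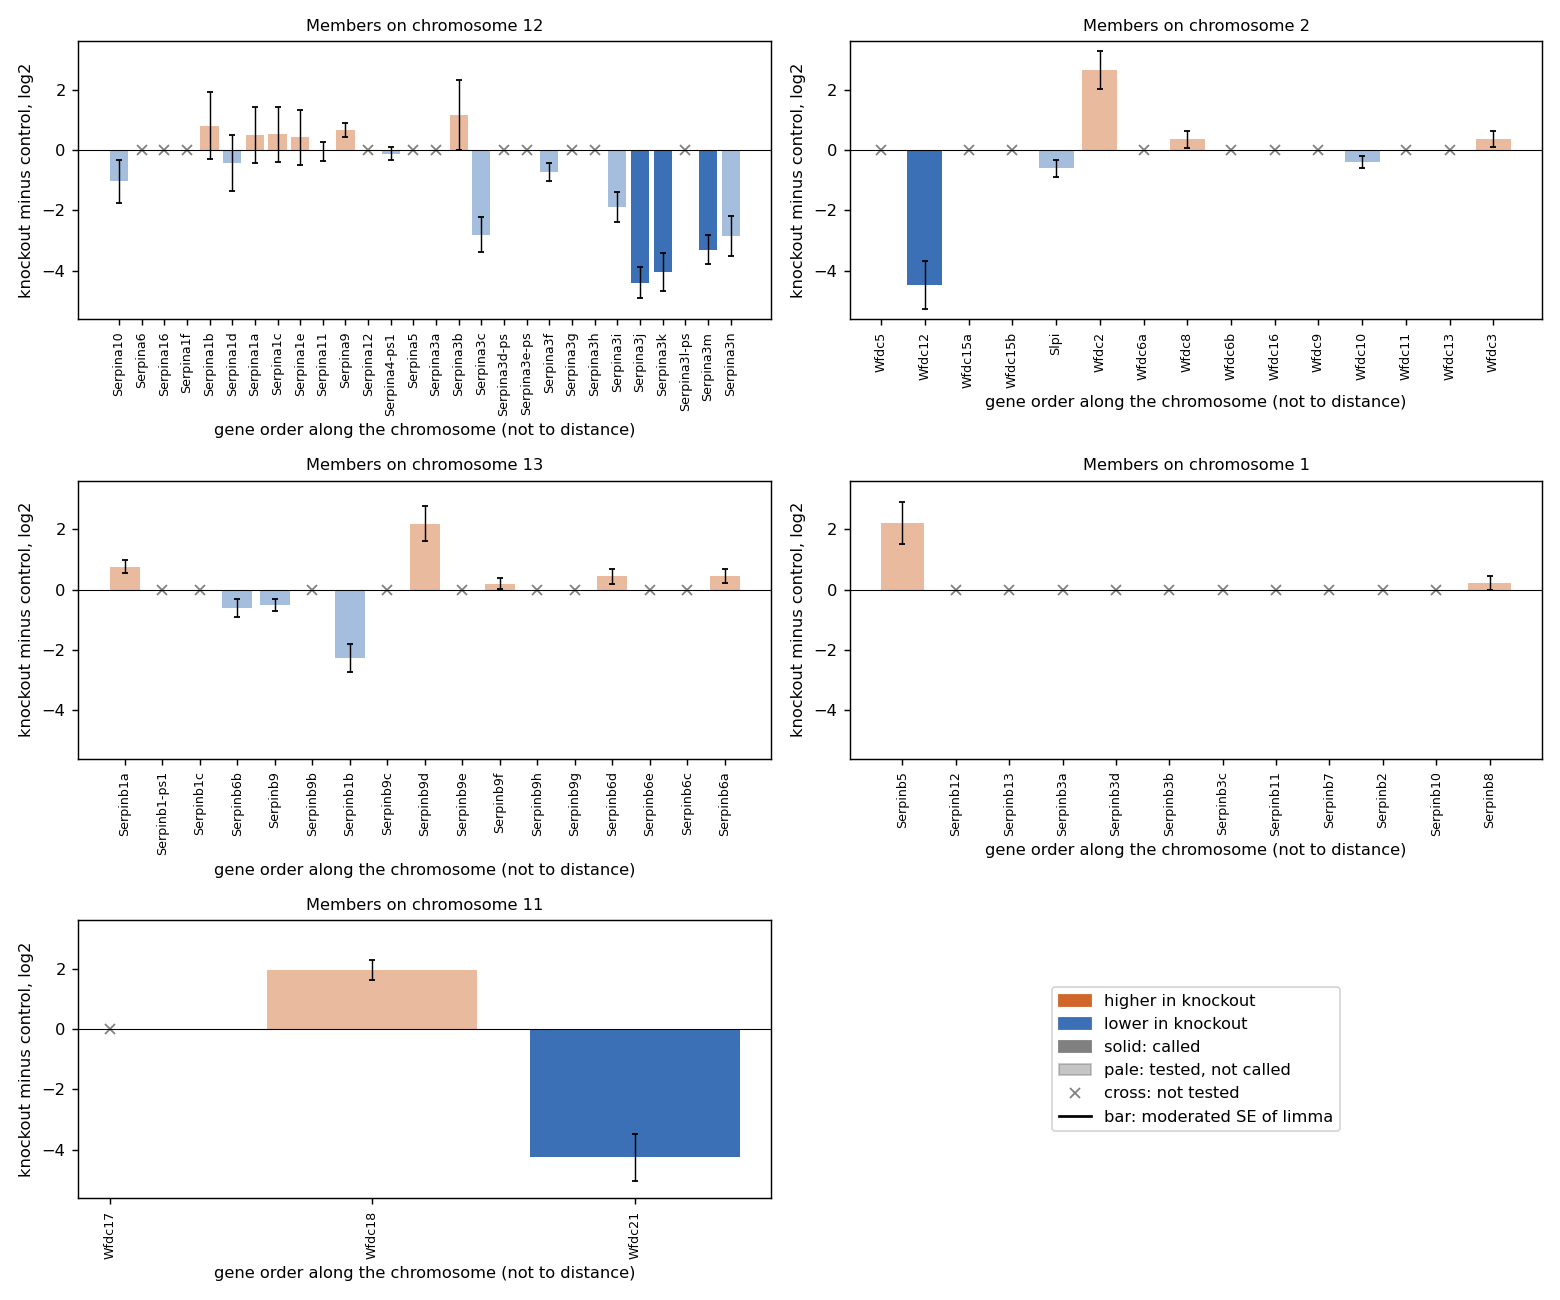
Knockout minus control on the log2 scale (y axis, bars with the moderated standard error of limma) for members in the order of the genes along chromosomes 12, 2, 13, 1 and 11 (x axis, order and not distance); solid bars were called, pale bars were not, and crosses mark genes without a test. The low bars of chromosome 12 lie from Serpina3c to Serpina3n, and those of the alpha-1-antitrypsin genes lie near 0 with wide errors.

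Proteases, activators and receptors linked to these inhibitors were read from a list of 63 genes. The list is wider than the targets of the members. It also holds receptors such as Lrp1 and F2rl3, the collagenase Mmp8 and the gelatinase Mmp9. Mmp8 and Mmp9 are counted again among the neutrophil markers below. Of the 63 genes 46 were tested, 25 lower and 21 higher, with a median of -0.14. In the list 6 were called lower and 0 higher, against 2.47% and 1.35% of all named genes. The count includes a gene that was tested only because the controls were bright (Plau), and such a gene could be called only lower. Plau, urokinase, which activates plasminogen, was well above background in the controls only at its tested probe, at -4.44, -5.01 and -4.02 against -7.62, -7.83 and -6.84, at least 2.02-fold lower (fitted adjusted p = 0.0233). A brighter Plau probe with too few usable spots was at 0.82, 0.51 and 1.14 against -2.37, -1.22 and -0.61, also without overlap. Plat, tissue plasminogen activator, differed by -0.84 (SE 0.99, adjusted p = 0.633), and the urokinase receptor Plaur by -1.40 (SE 0.83, adjusted p = 0.333). Lrp1, the endocytic receptor that clears complexes of serpins with their proteases, was at 2.31, 2.04 and 1.95 in the controls and 0.81, 0.84 and 0.81 in the knockouts, a difference of -1.28 (SE 0.16, adjusted p = 0.0245). F2rl3, a receptor cut by thrombin, differed by -2.66 (adjusted p = 0.0260), the lysosomal protease Ctsk by -1.74 (adjusted p = 0.0486), and the neutrophil collagenase Mmp8 by -3.85 (adjusted p = 0.0171). Mmp9, gelatinase B, differed by -2.86 (adjusted p = 0.0468) at its brightest probe. Of the neutrophil granule proteases against which many members act, Elane and Ctsg were well above background on no array. Prtn3 was well above background on all 6 arrays and differed by -0.03 (SE 0.33, adjusted p = 0.961).

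Of 33 protease inhibitors of other families, 18 were tested, 10 lower and 8 higher, with 2 called in each direction. Over all named genes, 2.47% were called lower and 1.35% higher. Pi15 was at least 4.84-fold lower and the stefin Stfa2 at least 9.21-fold lower, both well above background in the controls only. The stefin Stfa3 (difference 2.03, adjusted p = 0.0357) and the Kazal inhibitor Spink5 (difference 1.57, adjusted p = 0.0333) rose. A dimmer probe of St14, the membrane protease matriptase, rose by 1.89 (adjusted p = 0.0497), while its brighter probe differed by 1.80 (adjusted p = 0.104). Between both lists 10 genes were called, and 5 were in a fit of only the probes well above background on all 6 arrays. With 1 array left out, 12, 4 and 1 were called without control 1, 2 and 3, and 3, 8 and 1 without knockout 1, 2 and 3.

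Most neutrophil markers tested were lower in the knockout. Of 15 such markers 12 were tested, 9 were lower and 8 were called lower, among them Retnlg, S100a8 and S100a9, with a median of -1.88. Ltf was called higher. Over all named genes 2.47% were called lower and 1.35% higher. The summed level of the neutrophil markers was 37.3 to 42.2 in controls and 29.3 to 30.7 in knockouts, and Ngp and Elane were well above background on no array. Summed macrophage markers were at 32.4 to 41.6 and 26.2 to 31.1, with 0 called. Mast cell (1.51 to 2.84 and 1.47 to 2.15) and cytotoxic lymphocyte markers (3.70 to 4.69 and 3.55 to 5.90) overlapped between groups. Markers of B and plasma cells summed to 15.6 to 27.3 and 11.1 to 19.5, with Derl3 called lower. Smooth muscle markers summed to 40.9 to 50.8 and 56.2 to 66.2. The part of these cells in the values of Wfdc12, Wfdc21, Slpi and the Serpina3 genes was not tested.

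No member is called under every choice of arrays. With 1 array left out, 8, 1 and 3 member probes were called without control 1, 2 and 3, and 3, 10 and 0 without knockout 1, 2 and 3. The number called over the whole array moved with them, from 2114 without control 1 to 40 without knockout 3. Of the 9 called probes, the dimmer Slpi probe was called in 5 of the 6 such fits and Serpina3j in 4. Every fit that could be made kept the direction of all 9. An exact permutation test of a single probe cannot go below p = 0.1 with 3 arrays against 3 (two-sided).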

How the data were processed

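Colon RNA of 3 control and 3 knockout samples was hybridised to 1 array each, grouped by the genotype in the labels. The deposited scanner files hold the red channel, read with Feature Extraction 11.5.1.1, and are of design 074809, as the file headers state; by contrast the labels name Cy3 and a green signal, and the submitters' processing notes name Agilent Feature Extraction 10.7. The processed signal is an intensity, background-corrected by the scanner software, per the file headers, and not scaled between arrays. The series' value table, deposited by the authors as an intensity, held the same signals (used as an alternative).

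Intensities were converted to log2 and each array's 75th percentile over non-control spots was subtracted. Outlier spots were missing, and spots of a probe were averaged. A probe entered the test if the scanner software marked it well above background throughout 1 group, that is on 3 arrays, and if each group had 2 or more usable values (35351 of 56605 probes). The test was lmFit and eBayes of limma 3.58.1 (R 4.3.3), two-sided, with Benjamini-Hochberg adjustment at 0.05; the procedure was tested on simulated data. The number of arrays limits the precision. Names came from RefSeq accessions through the annotation of GRCm38.p6 (33762 probes); the files place probes on mm9, so no probe coordinates are given. The members, lists and named genes were chosen with earlier results of these data known. Values of every array are given for members with a called probe, the member with the lowest adjusted p in each role group, a set of well-known members and members seen in 1 group only; other values were added after they were seen. The counts cover all members, and the values of 1 tested member are not reported here. The letters of the C/EBP motif were set after the data were seen. Alternatives were outlier spots kept, median centring, quantile normalization, normexp (offset 50) with quantile normalization, the value table, no filter on dim probes, probes well above background on all 6 arrays, array weights, the dimmest probe for a gene and each array left out.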

Additional observations from a re-analysis of the deposited data

How the results depend on the processing

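The 9 called probes kept their sign under every alternative in which they were fitted. All 9 were called with outlier spots kept, median centring, quantile normalization, the value table and array weights; Serpini1 was lost with normexp (adjusted p = 0.0510), and 6 were lost with no filter on dim probes (Serpina3j, Serpina3m and Slpi stayed). Against 7 members called, there were 11 with outlier spots kept, 13 with median centring, 16 with normexp, 13 with the value table, 20 with array weights, 3 with no filter, 3 with probes well above background on all 6 arrays, and 0 to 9 with 1 array left out. Against 9 member probes, there were 17, 19, 16, 25, 4 and 3 with median centring, normexp, the value table, array weights, no filter and all 6 arrays, and 0 to 10 with 1 array left out. Higher calls appeared with outlier spots kept (1), median centring (1), normexp (3), the value table (2) and array weights (6). Over all probes array weights called 26.3% and no filter 0.935%. Partner genes called, 10, were 16 with median centring, 16 with the value table, 5 with no filter, 5 with all 6 arrays, 33 with array weights and 1 to 12 with 1 array left out; marker genes called, 11, were 33 with array weights and 1 to 12 with 1 array left out. The members' median was between -0.66 and 0.20, above 0 with no filter (0.03), all 6 arrays and without knockout 1 (0.03). The Islr difference was -2.58 to -2.34 with 1 array left out, and its call was lost only without knockout 3 (adjusted p = 0.0580), with no fit possible without control 2 or 3. Fewer arrays were fitted in the last set; the cause of the other shifts was not tested. No paired analysis was possible because the labels give no replicate numbers, and those used here only name the arrays. Signals near background limit Serpina3c, Serpina3j, Serpina3k, Serpina10, Serpind1, Serpinb1b, Serpinb9d, Wfdc10, Wfdc21 and the dimmer probes of Slpi and Serpini1. For Wfdc21 and the dimmer Serpini1 probe this holds for knockout 1.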
